A study of Homo sapiens with 18 samples.

Results

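The genes described here are nuclear genes named as protein subunits of the mitochondrial respiratory chain and of ATP synthase. They were chosen by gene name: 242 names of the table began like a subunit of complexes I to V, 152 of them were pseudogene, antisense or divergent names and were dropped, and 90 named subunits were left. Of the 90, 84 reached at least 1 TPM in at least 3 of 18 libraries, out of 16169 genes of 60623 that did so. By name, 39 of the 84 belong to complex I and 4 to complex II. Another 10 belong to complex III, 12 to complex IV and 19 to complex V. These counts hold ATP5IF1, COX7A2L, NDUFA4L2 and the readthrough genes NDUFC2-KCTD14 and ATP5MF-PTCD1. Those genes were left out where structural subunits alone were counted. The name pattern did not match NDUFAB1, also named as a complex I subunit, which was tested with the carriers.

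RNA was sequenced from 16D CRPC, an established human cell line of castration-resistant prostate cancer kept in RPMI medium with 10% FBS (fetal bovine serum). The groups were DMSO, the solvent, then 10 µM enzalutamide, a drug that blocks the androgen receptor, over 24, 48, 96 and 144 h, then long-term enzalutamide, given over a period above 2 months. Each of the 6 groups had 3 libraries, and all have the genotype WT. No harvest time is given for DMSO, so drug and time in culture cannot be told apart, and the labels do not say whether the 3 libraries of a group came from separate cultures, so p-values measure only the spread between these libraries.

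Complex I passes electrons from NADH, and complex II those from succinate, to ubiquinone. Complex III hands them to cytochrome c and complex IV to oxygen, and complex V, the ATP synthase, makes ATP from the proton gradient that complexes I, III and IV build. All but complex II also hold subunits encoded in mitochondrial DNA, so both genomes supply the same enzymes. Luminal prostate cells are known for exporting citrate instead of oxidising it, and prostate cancer cells for drawing more on oxidative phosphorylation.

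Values are TPM, a gene's share of a library's transcripts once transcript length is allowed for. Read totals are lost in TPM, and the depth of each library is unknown. A change is a difference of log2(TPM + 1) with its standard error, a level is a mean with the SD of 3 libraries, and a gene was called at an adjusted p under 0.05 in limma's moderated test over 16169 genes. In bulk RNA, fewer cells of a type and less RNA per cell cannot be told apart. All 8 prostate luminal markers passed the filter, at a summed 1264 to 1456 TPM long-term and 2389 to 2557 TPM in DMSO. Of 9 fibroblast markers COL1A1 alone passed, with COL1A2 at 0 in every library, and 8 leukocyte markers summed to at most 1.06 TPM, with MS4A1 at 0. COL1A1 averaged 29.4 ± 8.40 TPM at 144 h and 14.5 ± 0.930 in DMSO (0.94 ± 0.19, adjusted p = 0.00095), was also higher at 96 h (0.78 ± 0.19), and averaged 7.25 ± 1.09 TPM long-term (-0.92 ± 0.19 against DMSO and -1.85 ± 0.19 against 144 h). Of 6 muscle markers TNNT2 alone passed the filter, at 0.800 ± 0.0608 TPM at 144 h and 1.54 ± 0.286 in DMSO (-0.49 ± 0.19, adjusted p = 0.0473), and the part of either gene in the results was not tested. The 37 genes of mitochondrial DNA took 22.0% to 29.5% of TPM in long-term libraries, with replicate 2 the lowest, 18.3% to 22.5% at 144 h, 15.1% to 24.0% at 96 h and 17.7% to 20.6% in DMSO. Other genes share what is left of the total.

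Most subunits were abundant. In DMSO the median member stood at 293.7 TPM, and 71 of 84 averaged at least 100 TPM. The medians were 198.8 TPM for complex I, 106.6 for complex II, 344.2 for complex III, 482.0 for complex IV and 459.2 for complex V. NDUFB4, an accessory subunit of the membrane arm of complex I, was the highest of the 84 at 2215 ± 71.3 TPM. ATP5F1B, the catalytic beta subunit of ATP synthase, followed at 1382 ± 131 TPM, and COX7C led complex IV at 1145 ± 51.1 TPM. UQCRB led complex III at 684 ± 20.0 TPM and SDHB, the iron-sulfur subunit of succinate dehydrogenase, led complex II at 164 ± 10.1 TPM. Levels within a complex were far from equal. UQCRFS1, the Rieske iron-sulfur protein, averaged 22.1 ± 0.271 TPM in DMSO, while cytochrome c1, CYC1, of the same complex averaged 334 ± 3.10 TPM.

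The tissue-restricted forms of complex IV were at or near 0. COX4I2, known from lung, and COX7A1, the heart and muscle form, were listed at 0 in all 18 libraries. COX6A2, COX6B2 and COX8C, forms known from muscle or testis, reached at most 0.26, 0.51 and 0.18 TPM, and ATP5MGL of complex V at most 0.3 TPM. These are the 6 subunits that did not pass the filter. Just inside it, UQCRHL reached at most 1.59 TPM, COX7B2 4.69, NDUFC2-KCTD14 7.78 and NDUFA4L2, a paralog of NDUFA4 known to be raised in low oxygen, 8.06 TPM. UQCRHL is nearly identical to UQCRH, and the readthrough genes NDUFC2-KCTD14 and ATP5MF-PTCD1 share sequence with NDUFC2 and ATP5MF, so how reads were divided within these pairs is uncertain.

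**Figure D1:**
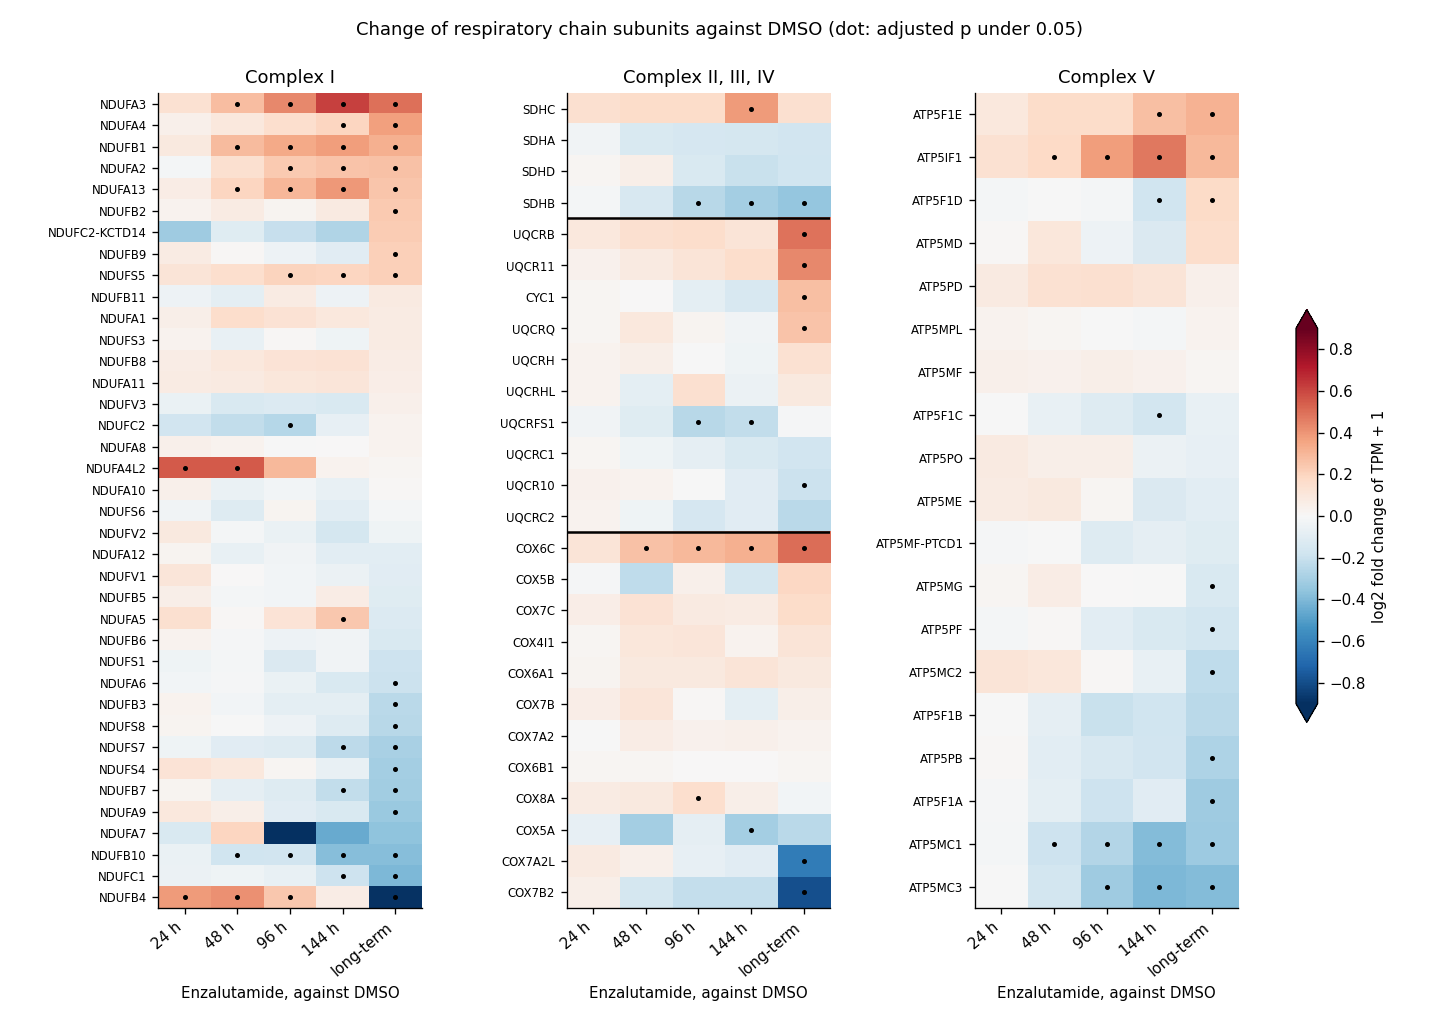
Change of the subunits, all but 1 of the 84, against DMSO (log2 fold change of TPM + 1, colour) at 24, 48, 96 and 144 h and long-term, by complex and ordered by the long-term value; a dot marks an adjusted p under 0.05. Most cells are pale, the dots number 2 at 24 h and 22 at 144 h, and NDUFA7, dark at 96 h, carries no dot.

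The subunits changed in both directions and by small amounts. At 24 h 2 of 84 were called, both higher, against 8.17% of all genes (4.59% higher and 3.58% lower). At 48 h 9 were called, 7 higher and 2 lower, against 17.5% of all genes (9.38% higher and 8.08% lower), and at 96 h 15, 9 higher and 6 lower, against 29.2% of all genes (16.5% higher and 12.7% lower). At 144 h 22 were called, 11 higher and 11 lower, against 42.9% of all genes (26.6% higher and 16.4% lower). Long-term against DMSO 38 were called, 16 higher and 22 lower, against 52% of all genes (18.1% higher and 33.9% lower), and an F test over the 6 groups called 38, against 60.2%. Abundant genes had another balance than all genes at 144 h. Of 3260 genes with a mean of at least 50 TPM, 732 were higher and 988 lower at 144 h. Long-term against DMSO 503 of them were higher and 1541 lower. No member reached a change of 1 on the log2 scale in any of the 6 pairwise comparisons. Between the highest and lowest of the 6 group means the widest span was 1.30, for a member of complex I. The 144 h split was 8 higher and 23 lower without 144 h replicate 3, whose members summed to 33385 TPM against 29829 and 29742 in replicates 1 and 2. It was 11 higher and 7 lower without 144 h replicate 1, 11 higher and 8 lower without 144 h replicate 2, 10 higher and 8 lower without DMSO replicate 1, 10 higher and 7 lower without DMSO replicate 2 and 11 higher and 5 lower without DMSO replicate 3. A change of at least 0.5 was reached by 1 of 84 at 144 h, against 24.5% of all genes, and by 4 of 84 long-term, against 31.6%. All these comparisons share the 3 DMSO libraries. The 24 h count was 1 without any one of its 6 libraries, and the 48 h count was 5 without DMSO replicate 1, 2 without DMSO replicate 2, and 5, 3 and 2 without 48 h replicates 1, 2 and 3.

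How many went up and how many down depended on the scale. From TPM the split was 9 higher and 6 lower at 96 h, and 3 higher and 15 lower under median-of-ratios scaling. At 144 h it was 11 and 11, and 4 higher and 37 lower under median-of-ratios scaling, 17 higher and 10 lower under quantile normalization and 13 higher and 20 lower with the mitochondrial share as a covariate. Long-term against DMSO it was 16 and 22, and 29 higher and 14 lower, 38 higher and 12 lower, 31 higher and 13 lower and 19 higher and 9 lower after scaling by median of ratios, by quantiles, by rescaling without mitochondrial genes, and with the covariate. The median of all genes was -0.12 long-term against DMSO from TPM, and -0.02, -0.02 and -0.01 under the first 3 of these. Relative to the median of all genes, 53 of 84 members lay above it long-term and 20 of 84 at 144 h. At 144 h the median was -0.07 for the members, 0.07 for all genes and -0.04 for the 3260 genes with a mean of at least 50 TPM. Long-term against DMSO the same medians were -0.01, -0.12 and -0.17. At 48 h the split was 7 and 2, with 3 higher and 3 lower under median-of-ratios scaling, 7 higher and 5 lower after rescaling and 8 higher and 5 lower with the covariate. At 24 h it was 2 and 0, with 1 higher and 1 lower under median-of-ratios scaling, and 2 higher and 1 lower after rescaling and with the covariate.

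A smaller set was called under every alternative, each library left out included. It held NDUFB4 at 24 and 48 h, 3 higher and 2 lower members at 96 h, 4 higher and 5 lower at 144 h, and 12 higher and 7 lower long-term against DMSO. The share of all genes called under every alternative was not computed, so these counts have no background to be read against. In the group means from DMSO through 24, 48, 96 and 144 h, 10 of 84 members had a higher mean at every step (11.9%, against 14.5% of all genes) and 6 a lower one (7.14%, against 8.39%). The 10 are ATP5F1E, ATP5IF1, COX6C, NDUFA3, NDUFA4, NDUFA11, NDUFA13, NDUFB1, NDUFB8 and UQCR11, and the 6 are ATP5F1C, ATP5MC1, ATP5MC3, NDUFS7, SDHA and SDHB.

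**Figure D2:**
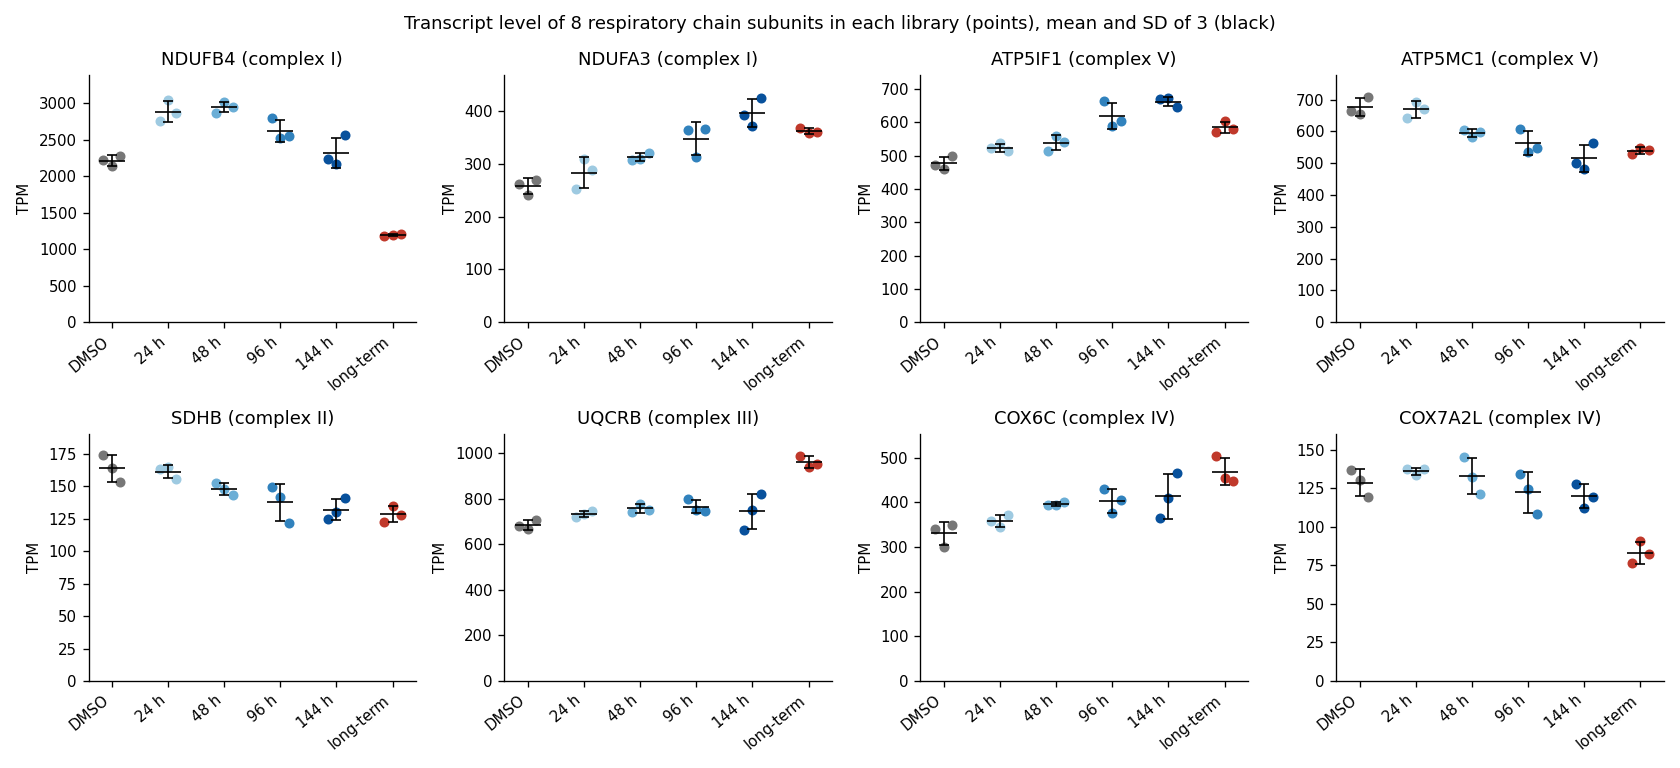
TPM of 8 subunits in each library (points) with the mean and SD of 3 libraries (black), in DMSO, at 24 to 144 h of enzalutamide and long-term; each axis starts at 0. NDUFB4 averages 2946 TPM at 48 h and 1196 TPM long-term, and the long-term libraries of UQCRB lie above all of its others.

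In complex I NDUFB4 moved most, in opposite directions early and late. It had 2222, 2140.2 and 2282 TPM in DMSO, 2752, 3045 and 2860.1 at 24 h, 2871, 3013 and 2955 at 48 h, 2797, 2519 and 2550.5 at 96 h, 2239.9, 2169.9 and 2559 at 144 h, and 1183, 1194 and 1212 long-term. Each library of 24, 48 and 96 h was above all of DMSO, those of 144 h overlapped DMSO, and the long-term libraries were below all 15 others. NDUFB4 rose by 0.38 ± 0.06 at 24 h (adjusted p = 0.000523) and 0.41 ± 0.06 at 48 h (adjusted p = 0.00014). The change was 0.07 ± 0.06 (adjusted p = 0.407) at 144 h and -0.89 ± 0.06 (adjusted p = 3.54e-09) long-term against DMSO. At 96 h it was 0.24 ± 0.06 (adjusted p = 0.006), a call lost under median-of-ratios scaling (adjusted p = 0.052) and quantile normalization (adjusted p = 0.125).

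NDUFB4 lies on the plus strand of chromosome 3, from 120596309 to 120602500 (GRCh38). The next 3 genes downstream were also lower long-term, as were 33.9% of all genes. NAP1L1P3, further downstream, had no call (-0.22 ± 0.22, adjusted p = 0.431). HGD, homogentisate dioxygenase of tyrosine breakdown, was at -2.55 ± 0.11 against DMSO, but it was lower at 24 h too (-0.86 ± 0.11), when NDUFB4 was higher. RABL3, a small GTPase, was at -0.86 ± 0.10 long-term and 0.02 ± 0.10 at 144 h, and GTF2E1, a subunit of the general transcription factor TFIIE, at -0.35 ± 0.12 long-term (adjusted p = 0.0261). Upstream, FSTL1 (0.05 ± 0.23, adjusted p = 0.89) and LRRC58 (-0.21 ± 0.17, adjusted p = 0.305) had no call. These neighbours were looked up after the NDUFB4 values were seen.

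The 250 bases before the RefSeq start (GRCh38.p14) are shown for 4 members whose transcripts moved differently: NDUFB4, UQCR11, ATP5IF1 and ATP5MC1. Capitals mark matches, on either strand, to the motif of nuclear respiratory factor 1, to CCGGAAG, that of ETS factors such as GABP, CACGTG, the E-box bound by MYC and others, and TNAAGGTCA, that of estrogen-related receptors. No 2 matches overlapped. The windows are chr3:120596086-120596335 on the plus strand for NDUFB4, chr19:1605463-1605712 on the minus strand for UQCR11, chr1:28235874-28236123 on the plus strand for ATP5IF1 and chr17:48892537-48892786 on the plus strand for ATP5MC1.
NDUFB4: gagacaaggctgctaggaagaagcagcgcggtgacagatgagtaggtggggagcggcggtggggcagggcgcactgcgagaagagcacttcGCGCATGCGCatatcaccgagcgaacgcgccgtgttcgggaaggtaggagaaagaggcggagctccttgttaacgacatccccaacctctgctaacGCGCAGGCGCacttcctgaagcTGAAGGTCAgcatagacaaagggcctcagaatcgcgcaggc
UQCR11: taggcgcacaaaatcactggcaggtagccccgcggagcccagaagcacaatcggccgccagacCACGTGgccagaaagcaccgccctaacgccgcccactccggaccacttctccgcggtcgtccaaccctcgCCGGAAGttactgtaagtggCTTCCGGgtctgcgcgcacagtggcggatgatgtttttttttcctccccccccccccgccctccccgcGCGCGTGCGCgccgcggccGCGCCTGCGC
ATP5IF1: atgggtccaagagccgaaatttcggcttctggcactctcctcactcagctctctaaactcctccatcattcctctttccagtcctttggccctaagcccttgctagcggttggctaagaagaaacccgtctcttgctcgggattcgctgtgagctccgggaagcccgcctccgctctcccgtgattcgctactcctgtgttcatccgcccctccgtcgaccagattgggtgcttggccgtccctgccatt
ATP5MC1: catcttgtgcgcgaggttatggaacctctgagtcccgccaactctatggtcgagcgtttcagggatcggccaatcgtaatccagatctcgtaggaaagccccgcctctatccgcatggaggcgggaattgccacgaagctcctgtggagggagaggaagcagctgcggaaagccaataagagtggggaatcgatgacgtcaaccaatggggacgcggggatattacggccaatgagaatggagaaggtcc
NDUFB4 had 2 matches to the nuclear respiratory factor 1 motif and 1 to TNAAGGTCA. UQCR11 had 2 to that motif, 2 to CCGGAAG and 1 to CACGTG, and the windows of ATP5IF1 and ATP5MC1 held none of these letters.

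Windows were found for 69 of the 84 members. The motif of nuclear respiratory factor 1 was in 14 of the 69 (20.3%), against 12.4% of the windows of 10321 tested genes and 5.07% of all 35116 windows. CCGGAAG was in 18 (26.1%), against 19.2% and 8.52%, and CACGTG in 6 (8.7%), against 11.5% and 6.34%. TNAAGGTCA was in 1, NDUFB4 (1.45%), against 0.678% and 0.854%. A match describes the letters and does not show that a factor binds.

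Accessory subunits of complex I with higher means at every step included NDUFA3. It had 261, 241 and 269.8 TPM in DMSO, 253, 309 and 288 at 24 h, 307, 309 and 321 at 48 h, 364, 312 and 366 at 96 h, 391, 371 and 424 at 144 h, and 367, 358 and 360.4 long-term. From 48 h on every library was above all of DMSO. The change was 0.62 ± 0.08 (adjusted p = 7.22e-06) at 144 h and 0.49 ± 0.08 (adjusted p = 4.78e-05) long-term, and its calls at 96 h, 144 h and long-term held under every alternative. NDUFA13, also called GRIM-19, followed it, at 471 ± 29.3 TPM at 144 h and 359 ± 5.17 in DMSO (0.39 ± 0.05), and 427 ± 20.9 long-term (0.25 ± 0.05). NDUFB1 was higher at 144 h (0.37 ± 0.09) and long-term (0.32 ± 0.09), as was NDUFA2 (0.25 ± 0.07 and 0.26 ± 0.07). Both lost the 144 h call under median-of-ratios scaling, with adjusted p = 0.0657 for NDUFB1 and 0.153 for NDUFA2, and NDUFB1 lost the long-term call with the mitochondrial share as a covariate (adjusted p = 0.117).

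Other complex I subunits fell. NDUFB10, of the membrane arm, averaged 738 ± 8.64 TPM at 144 h and 962 ± 18.9 in DMSO (-0.38 ± 0.05, adjusted p = 1.11e-05), and 738 ± 11.9 long-term (-0.38 ± 0.05). NDUFB7 was at -0.22 ± 0.06 at 144 h, and long-term NDUFC1 was at -0.40 ± 0.06 and NDUFS4 at -0.30 ± 0.06. These calls held under every alternative. Among the core subunits that carry iron-sulfur clusters, NDUFS7 (-0.30 ± 0.07) and NDUFS8 (-0.25 ± 0.05) were lower long-term. NDUFS7 lost this call under all 3 other scalings and NDUFS8 under 1 of them. Over the 39 subunits the long-term split was 8 higher and 11 lower from TPM, against 18.1% higher and 33.9% lower of all genes, but 14 higher and 7 lower under median-of-ratios scaling, 18 higher and 5 lower under quantile normalization, 16 higher and 7 lower after rescaling and 10 higher and 6 lower with the covariate.

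NDUFA4L2 was low but called early. It had 6.33, 7.58 and 6.25 TPM at 24 h and 4.02, 4.06 and 4.66 in DMSO (0.56 ± 0.16, adjusted p = 0.0374). The 24 h call ended without any one of these 6 libraries, with adjusted p 0.0581 to 0.139. NDUFA4, named as a complex I subunit but known as a component of complex IV, averaged 365 ± 18.1 TPM long-term and 282 ± 8.20 in DMSO (0.37 ± 0.06, adjusted p = 5.82e-05). It is counted and summed in complex I here. Without it complex I had 7 higher and 11 lower of 38 long-term, against 18.1% and 33.9% of all genes. With it complex IV had 2 higher and 2 lower of 13 long-term. At 144 h complex IV with it had 2 higher and 1 lower, against 26.6% and 16.4% of all genes. NDUFA7 ranged from 16.9 to 108 TPM over the libraries and had no call. It overlaps AC010323.1 on the same strand, and the 2 genes together had 281 ± 6.09 TPM long-term and 245 ± 11.5 in DMSO.

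In complex II the iron-sulfur subunit fell while 1 membrane anchor was higher at 144 h. SDHB had 174, 164 and 154 TPM in DMSO, 164, 165 and 156 at 24 h, 153, 148 and 144 at 48 h, 149, 142 and 122 at 96 h, 125, 130.4 and 141 at 144 h, and 123, 135 and 128 long-term. From 48 h on every library was below all of DMSO. The change was -0.31 ± 0.07 (adjusted p = 0.00256) at 144 h, called under every alternative, and -0.35 ± 0.07 (adjusted p = 0.000757) long-term, which was not called with the mitochondrial share as a covariate (-0.18, adjusted p = 0.0524). At 96 h the change of SDHB was -0.25 ± 0.07 (adjusted p = 0.0152), and it lost its call without DMSO replicate 1 (adjusted p = 0.0759) or 96 h replicate 3 (adjusted p = 0.0803).

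SDHC, which anchors the enzyme in the membrane, averaged 159 ± 18.1 TPM at 144 h and 121 ± 6.63 in DMSO (0.39 ± 0.10, adjusted p = 0.00618). Long-term it was at 134 ± 14.8 TPM with no call. SDHA, the flavoprotein that oxidises succinate, had no call at 144 h (-0.16 ± 0.09) or long-term (-0.17 ± 0.09), nor had the other anchor, SDHD (-0.20 ± 0.11 and -0.18 ± 0.11).

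Complex III had at most 1 call at each time up to 144 h, and more higher than lower members long-term. At 24 and 48 h limma called 0 of 10, against 8.17% and 17.5% of all genes, with an unadjusted p under 0.05 for 0 and 1. At 144 h 1 was called, against 42.9% of all genes. This was UQCRFS1, lower (-0.22 ± 0.08, adjusted p = 0.0322). It lost its call without any one DMSO library or without 144 h replicate 1 or 2. Without 144 h replicate 3 the count of the complex was 4. Without 144 h replicate 1 the split was 1 higher and 0 lower. Long-term against DMSO 4 higher and 1 lower were called, against 18.1% and 33.9% of all genes, and 4 to 6 higher and 0 lower under the other scalings and with the covariate. UQCRB, a small subunit near the ubiquinone site, had 680.0, 666 and 706 TPM in DMSO, 720.1, 730.1 and 746 at 24 h, 742, 778 and 751 at 48 h, 796, 751 and 745 at 96 h, 663, 750.2 and 818 at 144 h, and 988, 938 and 953 long-term. Its long-term libraries were above all 15 others, and the change against DMSO was 0.49 ± 0.06 (adjusted p = 4.05e-06).

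CYC1 had 383, 427 and 400.0 TPM long-term and 338, 333 and 332 TPM in DMSO (0.27 ± 0.06, adjusted p = 0.00081). UQCR11, a small subunit, had 269, 285 and 283 TPM long-term and 209, 193 and 217 in DMSO (0.43 ± 0.07, adjusted p = 0.000121). In neither gene did the groups overlap, and these 2 calls and that of UQCRB held under every alternative. UQCR11 overlaps AC005943.1 on the same strand, and their sum was 356 ± 21.8 TPM long-term and 303 ± 8.68 TPM in DMSO. UQCRQ was at 0.25 ± 0.08 long-term. UQCR10 was at -0.19 ± 0.05 (adjusted p = 0.00559), lost under all 3 other scalings. The large core proteins UQCRC1 (-0.17 ± 0.07) and UQCRC2 (-0.24 ± 0.12) had no call.

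Complex IV had 1 higher and 1 lower of 12 at 144 h, against 26.6% higher and 16.4% lower of all genes, and 1 higher and 2 lower long-term, against 18.1% higher and 33.9% lower of all genes. Under median-of-ratios scaling, quantile normalization, rescaling and the covariate the 144 h split was 0 higher and 2 lower, 2 higher and 1 lower, 2 higher and 1 lower and 2 higher and 1 lower, and the long-term split 5 higher and 2 lower, 8 higher and 2 lower, 5 higher and 2 lower and 2 higher and 1 lower. The 144 h count was 1 without DMSO replicate 2 and 1 without DMSO replicate 3, 2 higher and 1 lower without 144 h replicate 2, and the long-term split 2 higher and 2 lower without DMSO replicate 3. COX6C had 341, 301 and 349.6 TPM in DMSO, 358, 344 and 371 at 24 h, 394, 394 and 401 at 48 h, 430.4, 376 and 404 at 96 h, 365, 409 and 466 at 144 h, and 503, 454 and 447 long-term. Every library from 48 h on was above all of DMSO. The change was 0.32 ± 0.08 (adjusted p = 0.00447) at 144 h, lost under median-of-ratios scaling (0.21, adjusted p = 0.105), and 0.50 ± 0.08 (adjusted p = 6.88e-05) long-term, called under every alternative.

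COX7A2L, also called SCAF1 and known to join complexes III and IV, fell long-term. It had 136, 130.0 and 119 TPM in DMSO, 138, 133 and 137 at 24 h, 145, 132 and 121 at 48 h, 134, 125 and 108 at 96 h, 128, 112 and 119 at 144 h, and 76.3, 90.4 and 82.2 long-term. The long-term libraries were below all 15 others, at -0.63 ± 0.09 (adjusted p = 1.49e-05) against DMSO, called under every alternative. Its paralog COX7A2 averaged 524 ± 9.68 TPM long-term and 512 ± 29.4 in DMSO, with no call. COX7B2 had 1.40, 2.20 and 1.87 TPM long-term and 2.69, 4.42 and 4.69 in DMSO (-0.79 ± 0.18, adjusted p = 0.00187), and was not called with the mitochondrial share as a covariate (adjusted p = 0.0891). COX5A was lower at 144 h (-0.31 ± 0.11, adjusted p = 0.0332), a call that ended without DMSO replicate 2 (adjusted p = 0.104), DMSO replicate 3 (0.116) or 144 h replicate 3 (0.142). The common forms COX4I1, COX6A1, COX6B1, COX7B, COX7C and COX8A had no call long-term against DMSO, with changes from -0.02 for COX8A to 0.16 for COX7C.

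In complex V 2 of 3 genes for the c-ring fell while the gene for the inhibitor rose. ATP5MC1, ATP5MC2 and ATP5MC3 encode the same mature c subunit of the rotating ring. ATP5MC1 had 665, 655 and 709 TPM in DMSO, 642, 694 and 671 at 24 h, 605, 581 and 598 at 48 h, 607, 537 and 549 at 96 h, 501, 483 and 563 at 144 h, and 529, 548 and 543 long-term. Every library from 48 h on was below all of DMSO, with a change of -0.39 ± 0.06 (adjusted p = 6.21e-05) at 144 h and -0.32 ± 0.06 (adjusted p = 0.000262) long-term. ATP5MC3 averaged 334 ± 14.1 TPM at 144 h and 443 ± 10.5 in DMSO (-0.40 ± 0.06), and 338 ± 14.6 long-term (-0.39 ± 0.06). The calls of both at 96 h, 144 h and long-term held under every alternative. ATP5MC2 had no call at 144 h (-0.07 ± 0.06), and its long-term change of -0.23 ± 0.06 lost its call under all 3 other scalings.

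ATP5IF1, which keeps ATP synthase from running in reverse, had 472, 460.4 and 499.7 TPM in DMSO, 522, 538 and 513 at 24 h, 516, 559.9 and 542 at 48 h, 665, 591 and 603 at 96 h, 669, 672 and 646 at 144 h, and 572, 603 and 581 long-term. Every treated library was above all of DMSO. The change was 0.37 ± 0.05 (adjusted p = 3.77e-05) at 96 h, 0.47 ± 0.05 (adjusted p = 1.67e-06) at 144 h and 0.29 ± 0.05 (adjusted p = 0.000148) long-term, and these 3 calls held under every alternative. Of the 5 subunits of the F1 part, ATP5F1E was higher long-term (0.31 ± 0.06), called under every alternative, and ATP5F1A lower (-0.32 ± 0.11, adjusted p = 0.0238), called in all but 8 of 16 alternatives. Without long-term replicate 1 ATP5F1A was at -0.24 (adjusted p = 0.12), and it also lost its call without long-term replicate 3 or without DMSO replicate 1 or 2. ATP5F1B had no call (-0.24 ± 0.10). ATP5PB of the peripheral stalk was at -0.28 ± 0.07. The long-term split of complex V was 3 higher and 7 lower of 19 from TPM, against 18.1% higher and 33.9% lower of all genes, and 4 higher and 4 lower under median-of-ratios scaling, 5 higher and 4 lower under quantile normalization, 4 higher and 3 lower after rescaling and 2 higher and 2 lower with the covariate. There were 6 calls in all without DMSO replicate 1, long-term replicate 1 or long-term replicate 3.

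**Figure D3:**
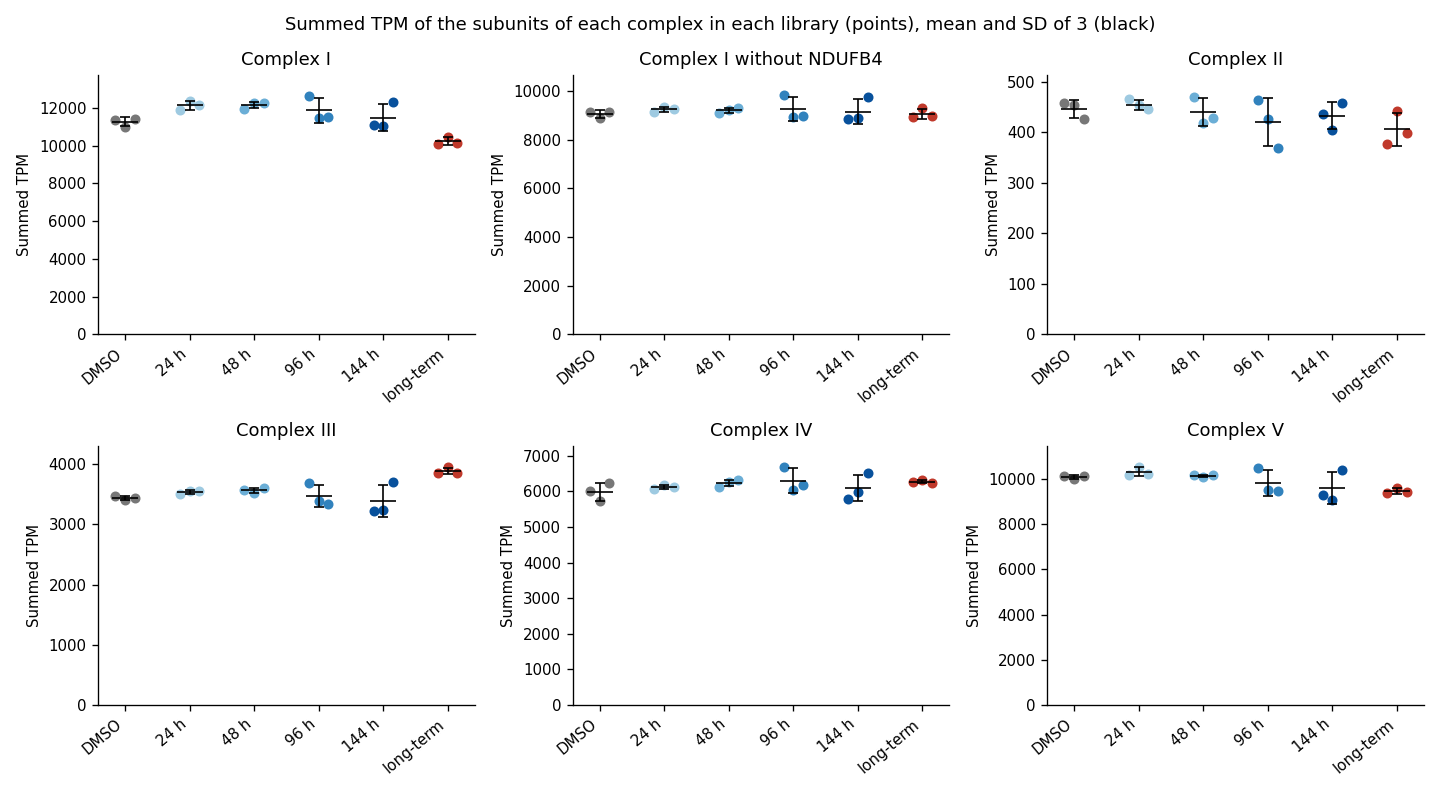
Summed TPM of the subunits of each complex in every library (points), with the mean and SD of 3 libraries (black), in DMSO, at 24 to 144 h and long-term; complex I is also shown without NDUFB4, and each axis starts at 0. The long-term libraries of complex III lie above the other 15, and those of complex I lie below the others only where NDUFB4 is included.

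Summed over subunits in TPM, complex III was the complex whose long-term libraries all lay above the other 15. It summed to 3883 ± 54.7 TPM long-term, 3386 ± 271 at 144 h and 3439 ± 36.0 in DMSO. Complex I summed to 10254 ± 203 TPM long-term and 11276 ± 223 in DMSO, and without NDUFB4 to 9058 ± 204 and 9061 ± 157 TPM. In TPM nearly all of the lower sum of complex I lay in NDUFB4, which averaged 1196 TPM long-term and 2215 in DMSO. Complex V summed to 9467 ± 127 TPM long-term and 10091 ± 86.5 in DMSO. As a share of the TPM outside mitochondrial genes, complex III took 0.528 ± 0.0203% long-term and 0.427 ± 0.0112% in DMSO, and complex IV 0.854 ± 0.0393% long-term and 0.743 ± 0.0453% in DMSO. In both the long-term libraries lay above the other 15. For complex IV the margin was very narrow, with 0.81149% in long-term replicate 2 and 0.81123% in 96 h replicate 3. Complex I took 1.40 ± 0.0457% long-term and 1.40 ± 0.0529% in DMSO, and without NDUFB4 1.23 ± 0.0376% long-term and 1.12 ± 0.0394% in DMSO. Complex V took 1.29 ± 0.0502% long-term and 1.25 ± 0.0332% in DMSO. These sums carry no test.

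**Figure D4:**
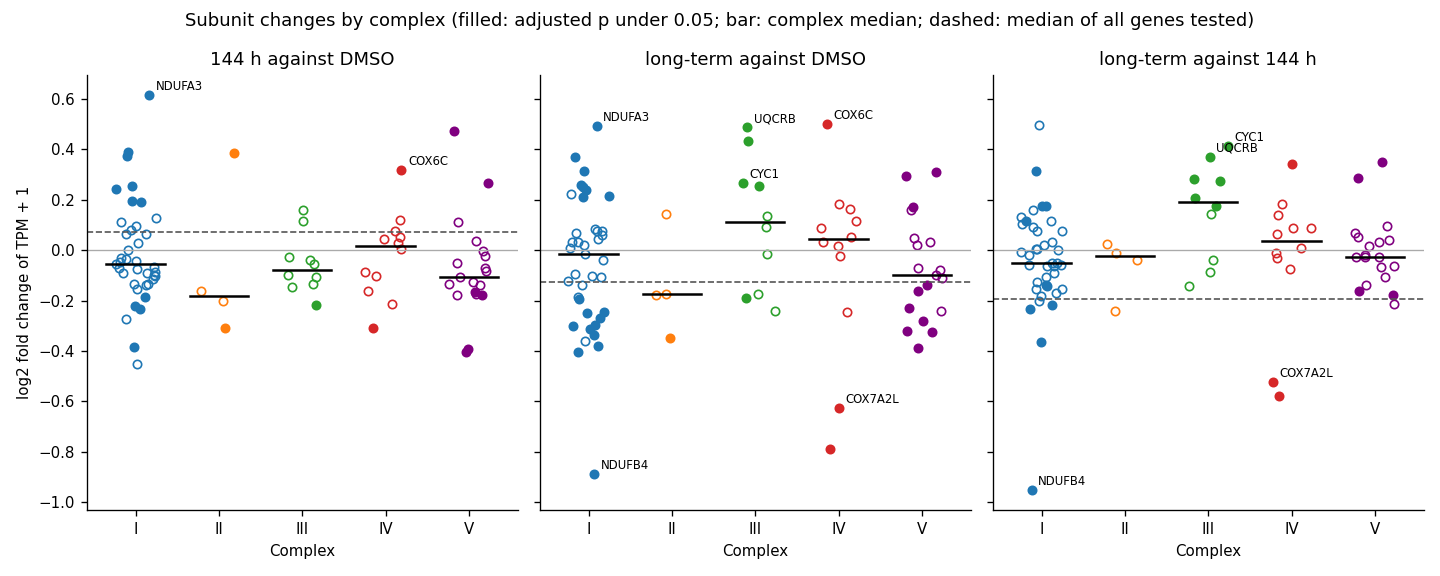
Log2 fold change of TPM + 1 of each subunit by complex at 144 h against DMSO, long-term against DMSO and long-term against 144 h (filled: adjusted p under 0.05; bar: median of the complex; dashed line: median of all 16169 genes). In the right panel the median of complex III, 0.19, is the highest of the 5, and 75 of 84 points lie above the dashed line.

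Long-term libraries were also set against those of 144 h. Of 84 members 13 were higher and 10 lower, 23 in all, against 46.1% of all genes (9.23% higher and 36.8% lower). The split was 8 higher and 9 lower without 144 h replicate 1, 8 higher and 12 lower without replicate 2 and 18 higher and 6 lower without replicate 3. Without long-term replicates 1, 2 and 3 it was 12 higher and 6 lower, 9 higher and 15 lower and 11 higher and 6 lower. The median of all genes was -0.19, and 75 of 84 members lay above it, with a median of -0.01 for the members and -0.14 for genes with a mean of at least 50 TPM. Under median-of-ratios scaling the median of all genes was 0.01 and the members were 46 higher and 2 lower, under quantile normalization 0 and 27 higher and 3 lower, and after rescaling without mitochondrial genes -0.09 and 29 higher and 4 lower. Once the mitochondrial share entered as a covariate, members were 19 higher and 3 lower.

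All called members of complex III were higher, under each of these scalings. It had 6 higher and 0 lower of 10 from TPM, against 9.23% of all genes higher, then 7 higher and 0 lower, 6 higher and 0 lower and 6 higher and 0 lower under the 3 other scalings and 7 higher and 0 lower with the covariate. CYC1 averaged 403 ± 22.1 TPM long-term and 303 ± 16.5 at 144 h (0.41 ± 0.06, adjusted p = 2.12e-05). UQCRB was at 0.37 ± 0.06, UQCRQ at 0.28 ± 0.08, UQCR11 at 0.28 ± 0.07, UQCRFS1 at 0.21 ± 0.08 and UQCRH, the hinge protein, at 0.17 ± 0.06. UQCRFS1 lost this call without any one of the 144 h libraries or long-term replicate 2. Elsewhere ATP5F1D of the central stalk (0.35 ± 0.07), NDUFB9 (0.31 ± 0.05) and ATP5MD (0.29 ± 0.07) were higher, and NDUFB4 (-0.95 ± 0.06) and COX7A2L (-0.52 ± 0.09) lower, under every alternative. Complex I had 4 higher and 6 lower, with 18 higher and 1 lower, 10 higher and 2 lower, 11 higher and 2 lower under the 3 other scalings and 6 higher and 2 lower with the covariate, 5 calls in all without long-term replicate 3, and 6 higher and 4 lower without 144 h replicate 3. In complex II limma called 0 of 4, against 46.1% of all genes, with an unadjusted p under 0.05 for 1. Under median-of-ratios scaling it had 3 higher and 0 lower. Without 144 h replicate 2 or long-term replicate 2 it was 0 higher and 1 lower.

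The 4 members on the long arm of chromosome 8, UQCRB, COX6C, NDUFB9 and CYC1, were all higher long-term than in DMSO. From UQCRB (start 96225920, GRCh38) to the end of that chromosome 228 genes were tested, and 41.2% were higher and 11.8% lower long-term than in DMSO. On other chromosomes 17.9% were higher and 34.0% lower, and of the 80 members there 12 were higher and 22 lower. Within 5 Mb of COX6C 30 of 50 tested genes were higher and 2 lower, of UQCRB 21 of 49 higher and 5 lower, of CYC1 39 of 109 higher and 14 lower, and of NDUFB9 8 of 37 higher and 6 lower. Around COX7A2L, on chromosome 2, 1 of 41 were higher and 25 lower, and around NDUFB4 6 of 49 were higher and 19 lower. NDUFA3, on chromosome 19, rose where 29 of 276 neighbours were higher and 112 lower. The part of position in these changes was not tested.

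**Figure D5:**
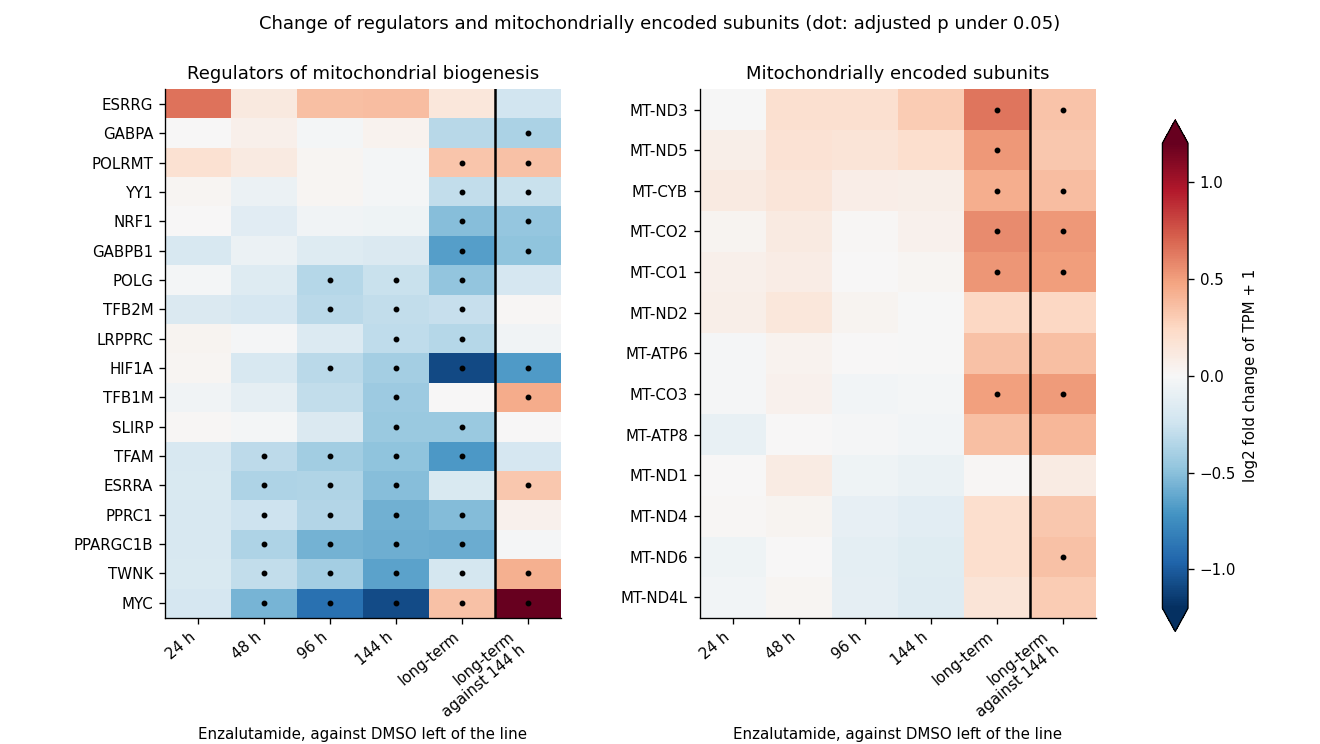
Log2 fold change of TPM + 1 (colour) for 18 regulators of mitochondrial biogenesis and 13 mitochondrially encoded subunits, against DMSO left of the line and long-term against 144 h right of it; a dot marks an adjusted p under 0.05. At 144 h 12 regulators are lower and none of the 13 mitochondrially encoded subunits carries a dot, while long-term 6 of the 13 do.

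Mitochondrially encoded partners of these subunits were called long-term and at no earlier time on the TPM scale. Up to 144 h limma called 0 of 13 at each time. Of all genes, 8.17%, 17.5%, 29.2% and 42.9% were called at 24, 48, 96 and 144 h. At these times 0, 0, 0 and 1 of the 13 had an unadjusted p under 0.05. The covariate gave 1 call at 24 h, 4 at 96 h and 6 at 144 h, and quantile normalization 1 at 96 h and 2 at 144 h. Long-term against DMSO 6 higher and 0 lower were called, against 18.1% higher and 33.9% lower of all genes. Among them were MT-CO1 (0.53 ± 0.14), MT-CO2 (0.57 ± 0.16) and MT-CO3 (0.49 ± 0.13) of complex IV and MT-ND3 (0.65 ± 0.13) of complex I. The split was 5 higher and 3 lower under quantile normalization, and 1 higher and 6 lower with the covariate, to which these genes contribute. Quantile normalization gives equal ranks equal values, and most of these genes rank near the top. Their calls under it therefore reflect changes of rank only. Without long-term replicate 2, 10 were called. The 13 summed to 7.45, 5.23 and 7.07 times the TPM of the 84 members in long-term libraries, against 5.02, 4.57 and 5.17 times in DMSO.

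Regulators of mitochondrial biogenesis were mostly lower by 144 h. Of 20 listed, 18 were tested, with PPARGC1A at 0.0667 ± 0.0569 TPM long-term and 0.367 ± 0.197 in DMSO among those too low. At 24 h limma called 0, against 8.17% of all genes, with an unadjusted p under 0.05 for 4, and 1 call without 24 h replicate 3. At 144 h 0 higher and 12 lower were called, against 26.6% higher and 16.4% lower of all genes, and 0 higher and 13 lower, 0 higher and 13 lower and 0 higher and 12 lower under the 3 other scalings. MYC, a driver of growth and of mitochondrial genes, had 167, 113 and 119 TPM at 144 h and 265, 312 and 255 in DMSO (-1.07 ± 0.13, adjusted p = 4.97e-06). Long-term it had 310.2, 399 and 351 TPM, which is 1.42 ± 0.13 against 144 h. Its long-term change against DMSO, 0.35 ± 0.13 (adjusted p = 0.0324), lost its call without DMSO replicate 1 (adjusted p = 0.091) or 3 (0.111) and without long-term replicate 2 (0.136) or 3 (0.0681).

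TFAM, which packages mitochondrial DNA and starts its transcription, was at -0.49 ± 0.09 at 144 h and -0.69 ± 0.09 long-term, at 27.5 ± 1.95 TPM long-term and 45.0 ± 2.58 in DMSO. The coactivators PPRC1 and PPARGC1B were at -0.58 ± 0.07 and -0.59 ± 0.12 at 144 h, the mitochondrial helicase TWNK at -0.64 ± 0.08 and the receptor ESRRA at -0.51 ± 0.08. NRF1, nuclear respiratory factor 1, had no call at 144 h (-0.05 ± 0.11) and was at -0.51 ± 0.11 long-term. GABPA, the DNA-binding part of GABP, had no call against DMSO at 144 h (0.05 ± 0.14) or long-term (-0.33 ± 0.14). HIF1A, which responds to low oxygen, had 38.5, 47.3 and 45.7 TPM long-term and 87.3, 109 and 86.4 in DMSO (-1.08 ± 0.10). Long-term against DMSO the list had 2 higher and 12 lower, against 18.1% higher and 33.9% lower of all genes, and 1 higher and 6 lower with the covariate.

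Carriers and assembly factors gave a mixed picture, to be read against 26.6% higher and 16.4% lower of all genes at 144 h and 18.1% higher and 33.9% lower of all genes long-term. CYCS, cytochrome c, which links complexes III and IV, averaged 172 ± 8.42 TPM at 144 h and 274 ± 8.64 in DMSO (-0.67 ± 0.07, adjusted p = 1.39e-06), and 173 ± 7.81 long-term. Of 19 complex I assembly factors 0 higher and 4 lower were called at 144 h, NDUFAF2 the most changed at -0.61 ± 0.08. Long-term they were 2 higher and 9 lower, but 4 higher and 4 lower under median-of-ratios scaling, 5 higher and 4 lower under quantile normalization, 3 higher and 5 lower after rescaling and 2 higher and 4 lower with the covariate, with TMEM126B higher at 0.57 ± 0.07. Of 6 factors of complex III 2 higher and 2 lower were called at 144 h, with 1 higher and 3 lower without 144 h replicate 1, and 1 higher and 2 lower without DMSO replicate 1, DMSO replicate 3 or 144 h replicate 3. UQCC2, needed to make cytochrome b, averaged 217 ± 5.46 TPM long-term and 410.4 ± 21.2 in DMSO (-0.91 ± 0.08), and BCS1L, which inserts the Rieske protein, was at -0.51 ± 0.06 at 144 h. Of 25 factors of complex IV 2 higher and 6 lower were called at 144 h, with 1 higher and 10 lower under median-of-ratios scaling and 5 higher and 7 lower after rescaling, and CMC2 was at -0.82 ± 0.07. Of 5 factors of complex V 3 higher and 0 lower were called at 144 h, and 3 higher and 1 lower under each other scaling, ATPAF1 at 0.48 ± 0.08, ATPAF2 at 0.36 ± 0.07 and TMEM242 at 0.37 ± 0.09. Of 4 factors of complex II limma called 0 at 144 h, with an unadjusted p under 0.05 for 0.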

How the data were processed

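Poly(A)-selected, strand-specific libraries were read as 50 bp single reads, per the labels' protocols, and Partek, RSEM and STAR, with GRCh38 and hg38 as builds, are listed in the submitters' processing notes without role, order or version. The authors deposited 1 TPM value per gene and library. They hold no counts, so depth and counting error are unknown. The 2 fold and 3 mean columns of the table were not used.

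Genes with at least 1 TPM in at least 3 libraries were tested on log2(TPM + 1) with limma 3.58.1 in R 4.3.3: 6 group means over 18 libraries, a variance trend, two-sided tests, Benjamini-Hochberg adjustment over 16169 genes within each of 6 comparisons, and a moderated F test. The procedure was first tested on simulated data. The alternatives were another pseudocount, other filters, 3 scalings, the mitochondrial share as a covariate, no trend, a replicate block, the libraries of both groups alone, structural subunits alone, and each library left out. Positions came from GENCODE release 29 (GRCh38), and promoters from RefSeq. Python 3.11.15, numpy 2.4.6, pandas 2.3.3 and matplotlib 3.10.9 did the rest.

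The members, the gene lists and the roles were chosen with earlier results of these data known. Genes named by rule are the 10 called members with the largest change in each direction of a comparison, the isoform pairs, all SDH genes, the highest member of each complex, and, of each list, the 4 called genes with the smallest adjusted p and 7 regulators. Others were named after their values were seen. The values of 1 subunit are not reported here, though it is in the counts.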

Additional observations from a re-analysis of the deposited data

Results flagged for a closer look

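For 8 subunits the change against DMSO differed between long-term treatment and 144 h, and did so under every alternative. How many of all genes would pass the same requirement was not computed. The DMSO libraries cancel in that difference, so its test is long-term against 144 h. The difference, long-term minus 144 h on the log2(TPM + 1) scale, was 0.41 for CYC1, 0.37 for UQCRB and 0.28 for UQCR11 of complex III. It was 0.35 for ATP5F1D and 0.29 for ATP5MD of complex V, 0.31 for NDUFB9 and -0.95 for NDUFB4 of complex I, and -0.52 for COX7A2L of complex IV. CYC1, UQCRB and NDUFB9 lie on the long arm of chromosome 8. Of the 228 tested genes from UQCRB on, members included, 28.9% were higher long-term than at 144 h, against 9.23% of all genes. The part of position was not tested.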

How the results depend on the processing

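Counts of called members that moved by more than 1.5 times were these, and the cause was not tested. At 24 h the count was 1 with no filter and 1 for structural subunits alone (2 as reported), and 1 to 1 with a library left out. At 48 h it was 5 with no filter, 18 under quantile normalization and 4 without a variance trend (9 as reported), and 2 to 7 with a library left out. At 96 h it was 25 with the mitochondrial share as a covariate and 9 from the libraries of both groups alone (15 as reported), and 10 to 14. At 144 h it was 41 under median-of-ratios scaling (22 as reported), and 16 to 31, the 31 without 144 h replicate 3. Long-term against DMSO no alternative moved it so far, and libraries left out gave 32 to 42. Long-term against 144 h it was 48 under median-of-ratios scaling and 11 from both groups alone (23 as reported), and 17 to 24. The F test gave 58 under median-of-ratios scaling (38 as reported), and 31 to 50.

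Values that changed sign are listed only where the gene was called as reported or under the alternative. Long-term against DMSO these values, all with the covariate, were ATP5F1A 0.0311, NDUFA9 0.0013 and MT-CO2 -0.0138. Long-term against 144 h they were, under median-of-ratios scaling, ATP5IF1 0.0599, ATP5MC2 0.0776, COX6A1 0.2079, NDUFA13 0.0988, NDUFC1 0.0197, NDUFS4 0.0029, NDUFS8 0.1026, SDHA 0.2257 and SDHB 0.1995. Under quantile normalization they were COX6A1 0.1067, SDHA 0.1591 and MT-CO1 0, and with the covariate ATP5F1B 0.2317, SDHA 0.2574 and MT-CO2 -0.0244. Of the single-gene values under alternatives other than leaving out a library, 2824 kept their call and its direction or stayed uncalled, whatever their sign. A further 68 gained a call, 184 lost it and 18, called as reported or under the alternative, changed sign.

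Same-numbered libraries did not deviate together (correlations -0.16 to 0.14, 5 of 45 pairs over 0.1, 4 of 18 libraries closest to their own number). With so few libraries this cannot show whether those of the same number shared a culture or a day. With a replicate block the counts were 2, 9, 15, 21, 38 and 20 in the 6 comparisons, and 36 by the F test.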
